A study of Mus musculus with 12 samples.

Results

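The chaperone genes described here code for J-domain proteins (DNAJ, or HSP40), HSP70 and HSP110 proteins, small heat shock proteins and subunits of the cytosolic chaperonin TRiC. A gene was taken when a probe set with exactly 1 gene symbol had a symbol that starts with Dnaj, Hspa, Hspb, Hsph, Hspd or Hspe, or with Cct followed by a digit. Dnajb9 and Hspa5 were left out, and where a gene had more than 1 probe set, the one with the higher mean over 12 arrays stood for it. The rule gave 62 genes out of 14860 genes with such a probe set. They comprise 4 DNAJA, 10 DNAJB and 23 DNAJC genes, 9 genes with HSP70 symbols (Hspa), Hsph1 as the only HSP110 symbol, 6 small heat shock genes (Hspb) and 8 TRiC genes (Cct). Hspbap1 also starts with these letters, but it codes for a protein that binds a small heat shock protein and is no member of that family, so it was kept apart. Hspa8, Hspa1b, Hspb1, Hspd1 and Hspe1 had no probe set with a single symbol and were not analysed here. The 5 probe sets that pair a matching symbol with a second gene were not among the members either.

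The arrays measured liver RNA of mice aged 8 weeks on a mixed C57BL/6;129Sv background, 1 array per sample and 3 labelled biological replicates in each of 4 groups. The groups were Tiparp -/- (knockout) mice given TCDD, knockout mice given corn oil, Tiparp +/+ (wild-type) mice given TCDD, and wild-type mice given corn oil. TCDD (2,3,7,8-tetrachlorodibenzo-p-dioxin), an agonist of the aryl hydrocarbon receptor (AhR), was injected intraperitoneally at 30 µg per kg of body weight. The labels give neither the time from injection to collection, nor sex, nor how the Tiparp allele was made, and an intraperitoneal injection of corn oil is not spelled out for the controls. Tiparp codes for a mono-ADP-ribosyltransferase that AhR induces and that represses AhR.

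HSP70 proteins bind exposed hydrophobic stretches of client proteins in a cycle driven by ATP. J-domain proteins deliver clients and speed up ATP hydrolysis, and nucleotide exchange factors, among them the HSP110 and BAG proteins, reset the cycle. TRiC is a double ring that folds actin, tubulin and other cytosolic proteins, and small heat shock proteins hold unfolded proteins without using ATP. Part of these genes is induced by heat shock factor 1 (HSF1), whose binding sites are inverted repeats of GAA. In the liver, cytosolic chaperones also keep AhR and the glucocorticoid receptor able to bind their ligands.

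Promoter windows are shown for Dnajb4, the called rise with the lowest adjusted p after TCDD in knockout liver, for Hspb8, the called fall, and for Hsph1 and Hspa1a, heat-inducible members that were not called. Each window is a RefSeq promoter of build GRCm38.p6, running from 250 bases before to 50 bases after an annotated start, written 5′ to 3′ on the gene's strand. Capitals mark the paired HSF1-type motifs GAANNTTC and TTCNNGAA, which read the same on both strands, and the AhR core GCGTG on either strand (CACGC on the other).

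Dnajb4, upstream start, chr3:152210034-152210333, minus strand: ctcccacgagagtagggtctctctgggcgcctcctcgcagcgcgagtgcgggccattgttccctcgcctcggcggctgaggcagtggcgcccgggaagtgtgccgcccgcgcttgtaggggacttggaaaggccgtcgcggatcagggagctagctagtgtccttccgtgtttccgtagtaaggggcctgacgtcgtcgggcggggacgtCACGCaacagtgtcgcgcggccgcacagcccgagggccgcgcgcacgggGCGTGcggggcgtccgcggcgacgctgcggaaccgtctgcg

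Dnajb4, downstream start, chr3:152193796-152194095, minus strand: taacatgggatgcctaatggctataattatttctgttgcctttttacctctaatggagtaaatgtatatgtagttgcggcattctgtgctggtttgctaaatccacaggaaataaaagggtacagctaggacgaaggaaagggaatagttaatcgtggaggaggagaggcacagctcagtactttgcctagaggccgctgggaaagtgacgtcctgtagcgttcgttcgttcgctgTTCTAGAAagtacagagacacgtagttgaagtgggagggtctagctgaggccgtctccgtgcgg

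Hspb8, chr5:116422815-116423114, minus strand: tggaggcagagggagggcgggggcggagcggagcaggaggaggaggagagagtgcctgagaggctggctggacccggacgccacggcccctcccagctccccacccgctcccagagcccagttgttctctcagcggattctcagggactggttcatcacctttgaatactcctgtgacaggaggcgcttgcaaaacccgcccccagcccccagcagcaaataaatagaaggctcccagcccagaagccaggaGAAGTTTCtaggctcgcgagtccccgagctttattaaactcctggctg

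Hsph1, chr5:149636287-149636586, minus strand: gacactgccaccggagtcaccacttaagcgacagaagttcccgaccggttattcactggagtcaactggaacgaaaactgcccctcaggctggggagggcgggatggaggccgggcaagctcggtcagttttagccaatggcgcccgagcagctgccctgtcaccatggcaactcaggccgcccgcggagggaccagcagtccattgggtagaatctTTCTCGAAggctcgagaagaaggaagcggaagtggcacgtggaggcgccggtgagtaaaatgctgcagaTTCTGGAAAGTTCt

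Hspa1a, chr17:34972107-34972406, minus strand: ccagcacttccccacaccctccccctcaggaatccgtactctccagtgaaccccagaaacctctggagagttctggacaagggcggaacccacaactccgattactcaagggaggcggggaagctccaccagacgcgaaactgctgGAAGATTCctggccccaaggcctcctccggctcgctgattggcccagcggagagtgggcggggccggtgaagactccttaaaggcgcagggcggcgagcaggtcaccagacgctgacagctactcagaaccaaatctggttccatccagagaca

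Positions are counted from the annotated start, with -1 as the last base before it and 1 as the first base after. The upstream Dnajb4 window holds AhR cores from -40 and from 10, and the downstream one holds an HSF1-type motif from -14. The Hspb8 window has 1 such motif from 3 and the Hspa1a window 1 from -104. Hsph1 has motifs from -33 and from 37 and 42, and the last pair overlaps. The Hspa2 window held none of these motifs, and the windows of Dnajb1, a heat-inducible member that was not called, held no HSF1-type motif. RefSeq promoters were found for 50 of the 62 genes, with 67 windows in all. GAANNTTC was in 17.9% of the member windows and 7.86% of 32851 promoters of all genes, TTCNNGAA in 7.46% and 8.52%, and GCGTG on either strand in 50.7% and 32.4%. Some genes have several overlapping windows. Counted by gene, GAANNTTC was in 22.0% of the 50 members and 9.04% of 27025 genes. TTCNNGAA was in 8.0% and 9.6%, and GCGTG in 52.0% and 35.2%. These are counts of letters and show no binding.

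The deposited values are log2 expression values from RMA between 1.05 and 14.16, and the median of an array was 6.91 to 7.00. Arrays of 1 group correlated at r of 0.979 to 0.989 across probe sets. Array number limits the precision, and p-values set a difference against the spread between mice within groups, pooled over the 4 groups. Tiparp itself had 6.70 to 6.91 in knockout TCDD liver, 5.58 to 7.10 in knockout corn oil liver, 9.91 to 10.84 in wild-type TCDD liver and 7.33 to 7.42 in wild-type corn oil liver, and whether its probe set lies in the deleted part is not given. The TCDD change was 3.14 in wild-type liver (limma, adjusted p = 0.00935) and 0.52 in knockout liver (adjusted p = 0.429). Knockout differed from wild-type liver by -3.71 under TCDD (adjusted p = 0.0021) and by -1.09 under corn oil, which was not called (adjusted p = 0.12). Of 5 hepatocyte markers, 0 were called, and their mean per array lay between 13.37 and 13.54. All 8 endothelial markers were below 0 after TCDD in both genotypes, and Pecam1, Stab1, Stab2, Tek and Oit3 were called lower in knockout liver. Their mean per array was 9.02 to 9.24 in knockout TCDD liver, against 9.61 to 9.70 in knockout corn oil liver, and 9.06 to 9.10 in wild-type TCDD liver, against 9.34 to 9.55 in wild-type corn oil liver. In bulk tissue, fewer cells of a type and less RNA per cell cannot be told apart, and the part of these markers in the TCDD effects on the members was not tested. Of 8 macrophage markers, 6 were below 0 after TCDD in knockout liver and Marco was called lower (-1.05, and -1.17 without the third knockout corn oil array), whereas Clec4f and Cd5l differed by 0.05 and 0.04. Of 5 neutrophil markers 0 were called there, with Retnlg at -1.25 (adjusted p = 0.067, and -1.50 with a call without that array, adjusted p = 0.0366, where S100a8 was called lower as well). The mean of the neutrophil markers per array was 5.85 to 6.21 in knockout TCDD liver, against 6.31 to 6.52 in knockout corn oil liver. Markers of lymphocytes, cholangiocytes, erythroid cells, pancreas and fat, and ciliated cells gave 0 calls in all comparisons, and of 6 stellate cell markers Col1a1 was called higher after TCDD in knockout liver (0.35). The third knockout corn oil array stood apart from the other 2 of its group. On the first principal component (23.5% of the variance) it scored 17.2, against 45.8 and 36.7 for the others and -30.5 to 7.99 for the arrays of the other groups. The members' calls were therefore also made without it, and so, as an alternative chosen after the data were seen, were those of the other genes named here. Without it the Tiparp difference was 0.16 after TCDD in knockout liver and -0.74 between the genotypes under corn oil, again with no call. Of the endothelial markers, 7 of 8 were then below 0 after TCDD in knockout liver, and Oit3 lost its call (adjusted p = 0.0502) while Lyve1 gained one. Among stellate markers Col1a1 lost its call (adjusted p = 0.0661) and Lrat gained one. The array left out was the lowest of its group for Marco, Retnlg, S100a8 and Lyve1 and the highest for Lrat. For these its omission could only widen the differences.

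Tests were fitted with limma on all arrays and all 23332 probe sets, and a gene was called at a Benjamini-Hochberg adjusted p below 0.05. Errors marked SE belong to the log2 change, and those marked SD to 3 arrays.

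TCDD in knockout liver raised Dnajb4, Dnajb3 and Hspa2 by 1.52- to 1.70-fold and lowered Hspb8 by 1.56-fold, and the other members were not called. The 4 calls are 6.45% of the members, beside 5.58% of all probe sets called, so the share of the members is near the background. By direction, 3 members were called higher and 1 lower, against 2.21% of all probe sets called higher and 3.37% called lower. The median change of the members was -0.09, against -0.05 over all probe sets. At an unadjusted p below 0.05 there were 6 members higher and 11 lower, beside 22.1% of all probe sets in either direction. Fitted on the 6 knockout arrays alone, the 4 changes kept their size and 0 were called (adjusted p = 0.074 to 0.151).

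**Figure D1:**
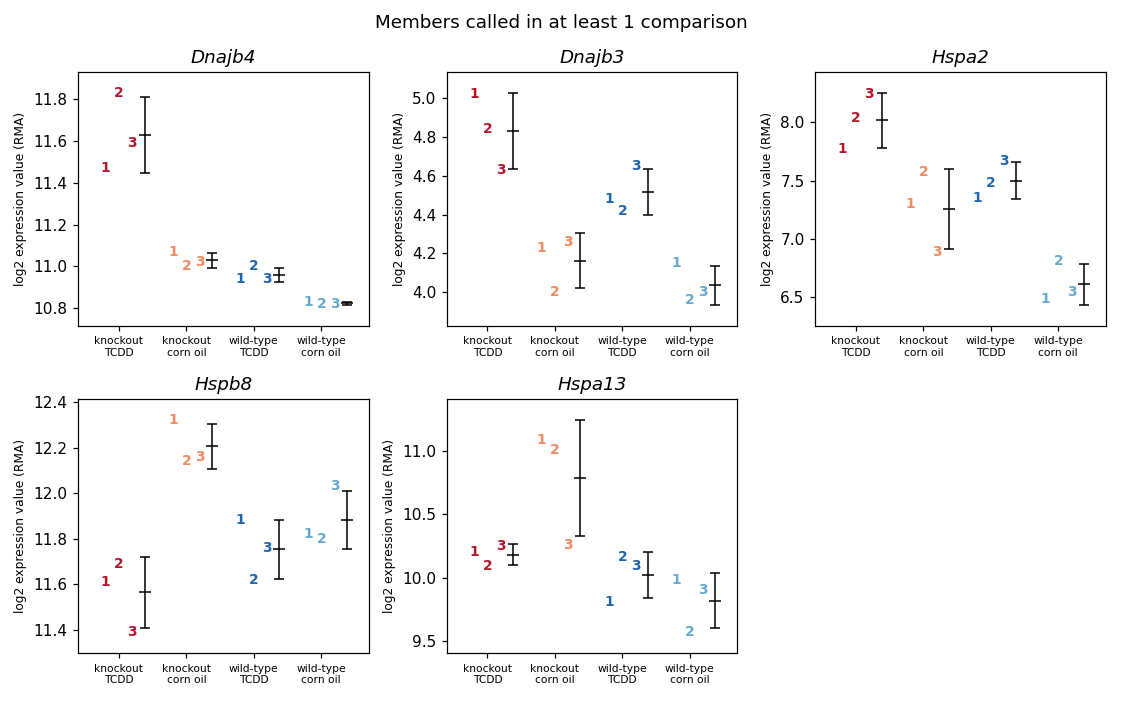
Log2 expression value (vertical axis) of the 5 members called in at least 1 comparison, by group (horizontal axis), where digits are replicate numbers of single arrays, and bars show the mean and SD of 3 arrays. Dnajb4 in knockout TCDD liver lies between 11.47 and 11.83, above all other arrays, and Hspa13 in knockout corn oil liver has 1 array at 10.26 far below the other 2.

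Dnajb4, a cytosolic J-domain protein of the heat-inducible type and probe set 6910611, had values of 11.47, 11.83 and 11.59 in knockout TCDD liver, against 11.07, 11.00 and 11.02 in knockout corn oil liver. It had 10.94, 11.00 and 10.94 in wild-type TCDD liver and 10.83, 10.82 and 10.82 in wild-type corn oil liver. Each of the knockout TCDD arrays was above every array of the other groups. The change in knockout liver was 0.60 ± 0.09 (SE), with an adjusted p of 0.00522 from limma, and the call was kept when any 1 array was left out. In wild-type liver the arrays also did not overlap, with a change of 0.14 ± 0.09 that was not called (adjusted p = 0.81). The difference between the genotypes' TCDD effects was 0.46 ± 0.12 and was not called (adjusted p = 0.132). Fubp1 overlaps the Dnajb4 locus, and its own probe set changed by -0.09 in knockout liver (adjusted p = 0.833).

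Dnajb3, a J-domain protein known from mouse testis and probe set 6760487, had 5.02, 4.84 and 4.63 in knockout TCDD liver, against 4.23, 4.00 and 4.26 in knockout corn oil liver. In wild-type liver it had 4.48, 4.42 and 4.65 under TCDD, against 4.15, 3.96 and 4.00 under corn oil. TCDD arrays were above corn oil arrays in both genotypes. The rise in knockout liver was 0.67 ± 0.12 (SE, adjusted p = 0.0124), and the wild-type change of 0.48 ± 0.12 was not called (adjusted p = 0.312). The gene lies inside the Ugt1a locus, which codes for glucuronidating enzymes, some of them known AhR targets. A probe set shared by 8 Ugt1a genes had 11.91, 11.74 and 11.64 in knockout TCDD liver, against 10.14, 10.79 and 10.81 in knockout corn oil liver. It rose by 1.18 ± 0.24 in knockout liver (adjusted p = 0.0224) and changed by 0.96 ± 0.24 in wild-type liver, where it was not called (adjusted p = 0.322). Its part in the Dnajb3 signal was not tested. Dnajb3 lay among the dimmer 50% of probe sets.

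Hspa2, an HSP70 protein best known from male germ cells and probe set 6796184, had 7.77, 8.04 and 8.24 in knockout TCDD liver, against 7.30, 7.57 and 6.89 in knockout corn oil liver. It had 7.35, 7.48 and 7.67 in wild-type TCDD liver and 6.48, 6.81 and 6.54 in wild-type corn oil liver. Its TCDD arrays were above the corn oil arrays in each genotype, and its knockout arrays above the wild-type arrays under each treatment. The TCDD change was 0.76 ± 0.18 (SE, adjusted p = 0.0391) in knockout liver and 0.89 ± 0.18 in wild-type liver, where it was not called (adjusted p = 0.173). The difference between them was -0.13 ± 0.26 (adjusted p = 0.876). Against wild-type corn oil liver, knockout TCDD liver was 1.41 ± 0.18 higher (adjusted p = 0.00333). The knockout call was kept in only 2 of 12 fits that left out 1 array, with adjusted p-values of 0.0359 to 0.135. It was lost without 10 of the arrays: each knockout TCDD and wild-type TCDD array, replicates 1 and 3 of knockout corn oil, and replicates 1 and 3 of wild-type corn oil.

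Hspb8, a small heat shock protein that works with the HSP70 co-chaperone BAG3 in the removal of misfolded proteins, fell (probe set 6941374). It had 11.61, 11.69 and 11.39 in knockout TCDD liver, against 12.32, 12.14 and 12.16 in knockout corn oil liver. It had 11.88, 11.62 and 11.76 in wild-type TCDD liver and 11.82, 11.80 and 12.03 in wild-type corn oil liver. The knockout corn oil arrays were above every array of the other groups. The change was -0.64 ± 0.11 in knockout liver (SE, adjusted p = 0.0105, kept when any 1 array was left out) and -0.13 ± 0.11 in wild-type liver (adjusted p = 0.871). Set against wild-type corn oil liver instead, knockout TCDD liver differed by -0.32 ± 0.11 and the call was lost (adjusted p = 0.175). The difference between the TCDD effects was -0.51 ± 0.15 (adjusted p = 0.167).

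Bag3 itself was also highest in knockout corn oil liver, with 9.94, 9.74 and 9.64 in knockout TCDD liver, against 11.19, 10.86 and 10.21 in knockout corn oil liver. In wild-type liver it had 9.65, 9.71 and 9.33 under TCDD, against 9.41, 8.97 and 9.51 under corn oil. Bag3 fell by 0.98 on the log2 scale after TCDD in knockout liver (SE 0.23, adjusted p = 0.0396). Under corn oil it was 1.46 ± 0.23 higher in knockout than in wild-type liver (adjusted p = 0.0291). Without the third knockout corn oil array, the lowest of its group for Bag3, both were called again, at -1.25 and 1.73. Leaving out the lowest array could only widen these differences, so the kept calls are no check on them.

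TCDD in wild-type liver led to 0 calls among the 62 members in limma, beside 0.116% of all probe sets called, all of them higher. At an unadjusted p below 0.05, 2 members were higher and 4 lower, beside 7.28% of all probe sets, and the members' median change was -0.02, against 0.01 over all probe sets. Arrays of both treatments did not overlap for 9 members (14.5%), beside 13.7% of all probe sets. Dnajb12, Dnajb3, Dnajb4, Dnajc5 and Hspa2 were the 5 higher ones, beside 7.74% of all probe sets, and Cct7, Dnajc1, Dnajc24 and Hspbap1 the 4 lower ones, beside 6.0%. In knockout liver the same count was 18 members (29.0%), beside 23.5% of all probe sets. Of these, 7 were higher, beside 7.92% of all probe sets, and 11 were lower, beside 15.6%. The 2 TCDD effects rest on different arrays, and across the 62 members they correlated at r = 0.24, against 0.17 over all probe sets, with 34 members of the same sign (54.8%), beside 51.9% of all probe sets. The points share the arrays of each genotype, and r is a description. No member was called for a difference between the TCDD effects in limma, where 0.159% of all probe sets were called. At an unadjusted p below 0.05, 3 members had a positive difference and 7 a negative one, beside 14.8% of all probe sets.

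**Figure D2:**
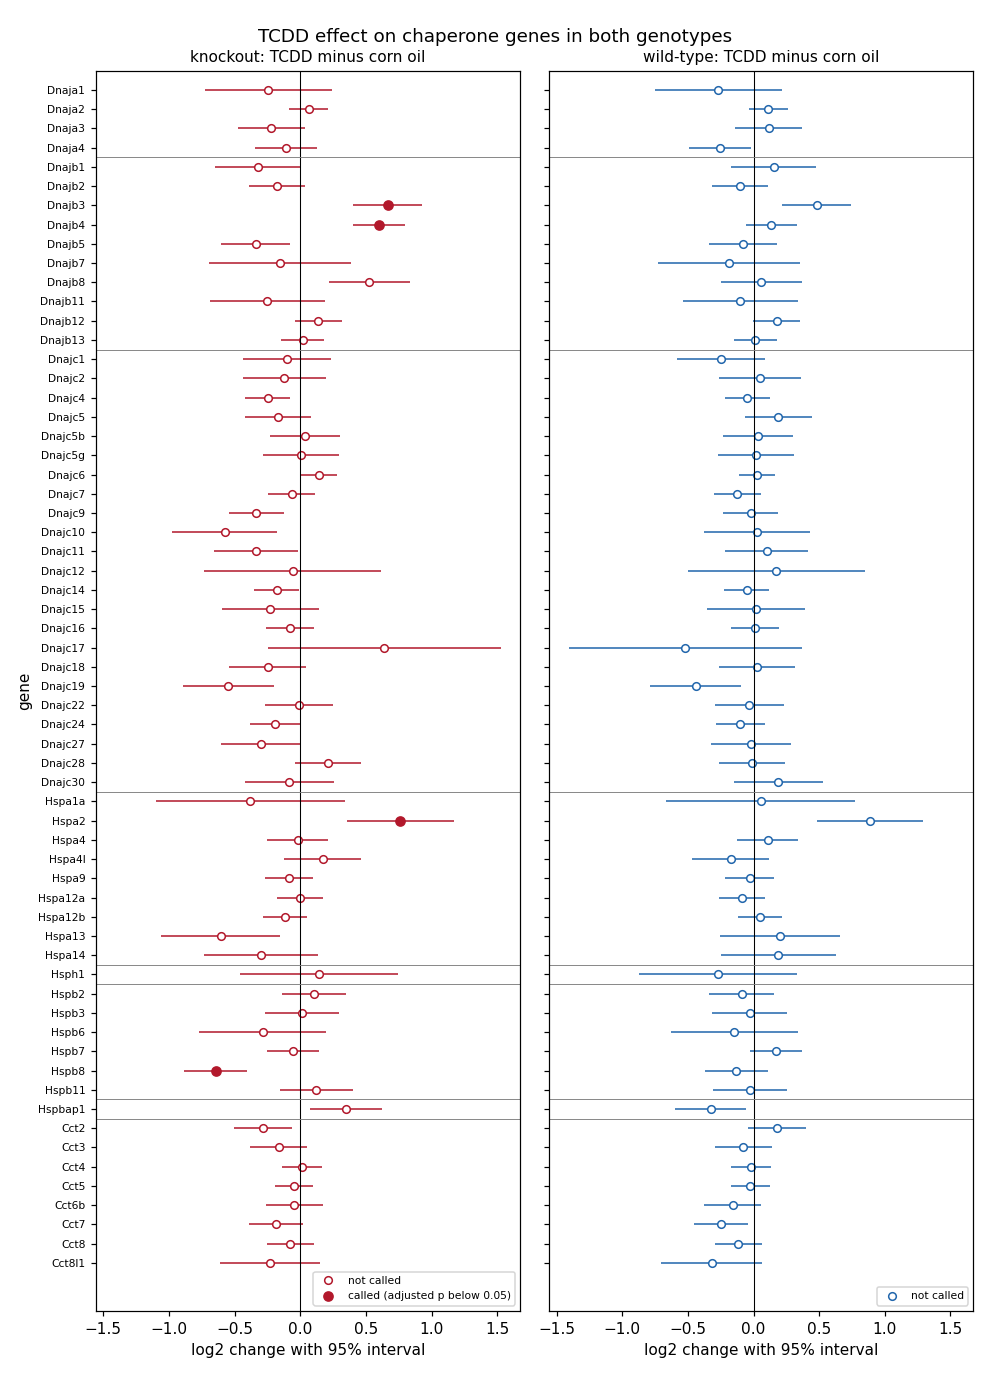
TCDD effect on each of the 62 members (rows, by family) as log2 change (horizontal axes) with its 95% interval, in knockout liver (left) and wild-type liver (right), where filled circles are called at an adjusted p below 0.05. The 4 calls lie in knockout liver, and TRiC changes there lie between -0.28 and 0.01.

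Among DNAJA genes, general cytosolic and mitochondrial co-chaperones of HSP70, 0 of 4 were called in any comparison, and 1 (Dnaja4, lower in wild-type liver after TCDD) had an unadjusted p below 0.05. Dnaja3, which works with mitochondrial HSP70, had 10.20, 10.66 and 10.55 in knockout TCDD liver, against 10.79, 10.68 and 10.60 in knockout corn oil liver, and its change was -0.22 (adjusted p = 0.297). In wild-type liver Dnaja3 had 10.54, 10.62 and 10.62 under TCDD, against 10.42, 10.43 and 10.58 under corn oil. Dnaja1, a heat-inducible cytosolic member, had 7.28, 7.57 and 7.70 in knockout TCDD liver and 7.39, 8.15 and 7.74 in knockout corn oil liver. In wild-type liver it had 6.96, 7.23 and 7.62 under TCDD and 7.60, 7.32 and 7.69 under corn oil. Its groups overlapped in every comparison.

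DNAJB genes held 2 of the 3 called rises, Dnajb4 and Dnajb3, among 10 members, beside 2.21% of all probe sets called higher. Of the others, Dnajb8, known from testis, changed most, by 0.53 in knockout liver (adjusted p = 0.056). Dnajb1, the main heat-inducible HSP40, had 7.91, 8.03 and 7.86 in knockout TCDD liver, against 8.37, 8.50 and 7.90 in knockout corn oil liver. It had 8.49, 8.37 and 8.21 in wild-type TCDD liver and 8.13, 8.15 and 8.33 in wild-type corn oil liver. All knockout TCDD arrays were below all wild-type TCDD arrays, a difference of -0.42 ± 0.15 (SE) that was not called (adjusted p = 0.302). Its TCDD change in knockout liver was -0.32 ± 0.15 (adjusted p = 0.227), and -0.50 ± 0.11 with a call without the third knockout corn oil array (adjusted p = 0.0234). That array was the lowest of its group for Dnajb1, so its omission could only widen the fall.

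Of 23 DNAJC genes, a family of specialised J-domain proteins, 0 were called in any of the 5 comparisons with all arrays, and 18 of them had a change below 0 in knockout liver, beside 58.8% of all probe sets. Without the third knockout corn oil array 15 were below 0, beside 57.0% of all probe sets. Dnajc10 and Dnajc5 were then called lower, beside 8.59% of all probe sets called in either direction. For both genes the array left out was the lowest of its group, so its omission could only widen the falls. In knockout liver with all arrays, 1 was higher and 7 were lower at an unadjusted p below 0.05, beside 22.1% of all probe sets in either direction. In wild-type liver 1 was lower, beside 7.28%. Dnajc10, a disulfide reductase of the endoplasmic reticulum (ER), changed by -0.58 ± 0.18 (SE) in knockout liver (adjusted p = 0.0945). Dnajc19, of the mitochondrial import motor, had 7.22, 6.99 and 7.20 in knockout TCDD liver, against 7.86, 7.66 and 7.53 in knockout corn oil liver. The groups did not overlap, and its change was -0.55 (adjusted p = 0.071), with -0.44 in wild-type liver (adjusted p = 0.573). Dnajc17 had the largest SE of the family, with values of 2.19, 2.06 and 3.61 in knockout TCDD liver, against 2.11, 1.88 and 1.95 in knockout corn oil liver. One knockout TCDD array was far above the other 2, and the mean change of 0.64 ± 0.40 was not called (adjusted p = 0.396). In wild-type liver Dnajc17 had 2.26, 3.34 and 2.14 under TCDD, against 3.02, 3.07 and 3.21 under corn oil. Under corn oil the genotypes did not overlap, with a difference of -1.12 ± 0.40 (SE) that was not called (adjusted p = 0.162). This probe set was dim, with values of 1.88 to 3.61, and how far it lies above background was not assessed. Dnajc5, a vesicle-bound J-domain protein of exocytosis, had 10.05, 10.18 and 10.15 in knockout TCDD liver, against 10.48, 10.40 and 10.01 in knockout corn oil liver. Its wild-type values were 10.02, 10.12 and 9.96 under TCDD, against 9.85, 9.79 and 9.89 under corn oil. All its knockout corn oil arrays were above all wild-type corn oil arrays, by 0.45 ± 0.11 (SE) on average, without a call (adjusted p = 0.0727).

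A group of mitochondrial members, Hspa9, Dnaja3, Dnajc11, Dnajc15, Dnajc19 and Dnajc30, was picked by hand with results known. All 6 were below 0 in knockout liver after TCDD, with a median of -0.22, and 0 were called. Dnajc28, a mitochondrial member left out of the group, changed by 0.21 there, without a call. Of all probe sets 58.8% were below 0, with a median of -0.05. Without the third knockout corn oil array, 5 of the 6 were below 0 and the median was -0.21. In wild-type liver 4 of the 6 were above 0 with a median of 0.06, beside 52.2% of all probe sets above 0 and a median of 0.01.

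HSP70 symbols gave 1 call of 9 after TCDD in knockout liver, Hspa2, beside 5.58% of all probe sets called. Hspa9, the mitochondrial HSP70, stayed within narrow limits: 11.55, 11.72 and 11.62 in knockout TCDD liver, 11.71, 11.69 and 11.74 in knockout corn oil liver, 11.44, 11.71 and 11.65 in wild-type TCDD liver, and 11.62, 11.67 and 11.60 in wild-type corn oil liver. Hspa4 and Hspa4l, which act as nucleotide exchange factors of the HSP110 type, changed by -0.02 and 0.17 in knockout liver and by 0.11 and -0.17 in wild-type liver, with 0 calls. The distant relatives Hspa12a and Hspa12b were not called either.

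Hspa1a, the classical stress-induced HSP70, had 6.17, 6.08 and 5.41 in knockout TCDD liver, against 6.66, 6.40 and 5.74 in knockout corn oil liver. In wild-type liver it had 6.00, 5.91 and 5.48 under TCDD, against 5.97, 5.11 and 6.15 under corn oil. Its SD within a group was 0.28 to 0.56, and its group means spanned 0.52. Its TCDD change in knockout liver had a 95% interval of -1.10 to 0.34. Hspa1b is nearly identical in sequence, so the probe set may read both. A probe set shared by Hspa1l and Hspa1a, which is not a member, changed by 0.10 in knockout liver (adjusted p = 0.63). The member probe set changed by -0.38 there. Hsph1, the heat-inducible HSP110, had 9.72, 9.33 and 9.18 in knockout TCDD liver, against 8.99, 9.88 and 8.93 in knockout corn oil liver. It had 9.55, 9.32 and 8.95 in wild-type TCDD liver and 9.22, 9.66 and 9.75 in wild-type corn oil liver. Groups overlapped in each comparison, and its change in knockout liver was 0.14 ± 0.27 (SE, adjusted p = 0.81).

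**Figure D3:**
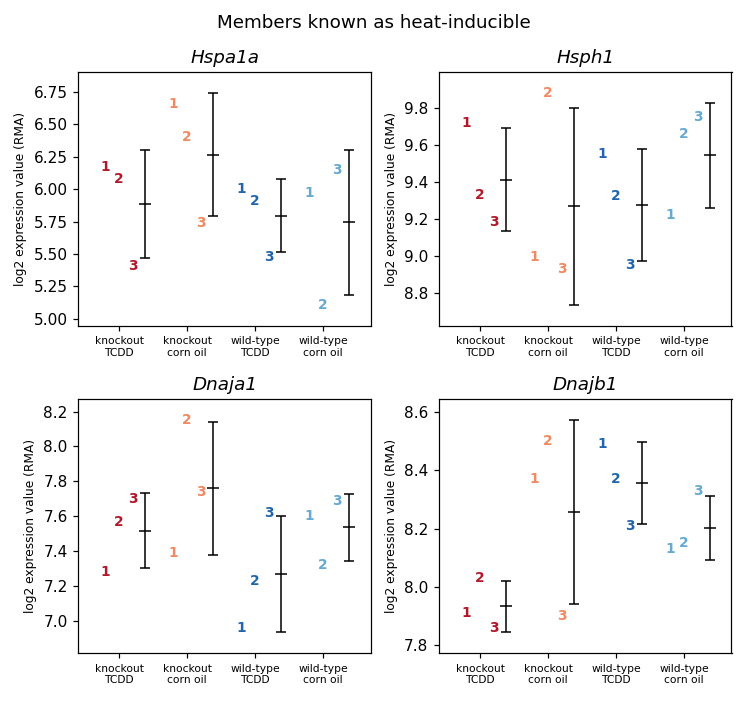
Log2 expression value (vertical axes) of 4 heat-inducible members by group (horizontal axes), with single arrays as replicate numbers and bars for the mean and SD of 3 arrays. The knockout corn oil arrays of Hsph1 span 8.93 to 9.88, which takes in all its arrays of the other groups.

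A list of 22 genes known to be induced by HSF1 had 15 measured genes, 7 of them members. In knockout liver after TCDD, Dnajb4 was called higher and Hspb8 and Bag3 lower, 3 of 15 genes beside 5.58% of all probe sets. The median of the list was -0.15, against -0.05 over all probe sets. Without the third knockout corn oil array, the lowest of its group for Dnajb1, this gene was also called lower. In wild-type liver 0 were called, with a median of -0.13, against 0.01 over all probe sets. Between the genotypes under corn oil, Bag3 was called higher and Fkbp4 lower in knockout liver, 2 of 15 genes beside 1.96% of all probe sets, with a median of 0.05, against 0.03 over all. Under TCDD only Dnajb4 was called between the genotypes. Hsf1 itself was not analysed here. The heat shock factor genes Hsf2 and Hsf4, and Hsbp1, which codes for a protein that binds heat shock factor, were not called in any comparison. Hsp90aa1, the inducible HSP90, changed by -0.53 in knockout liver (adjusted p = 0.215).

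Small heat shock genes other than Hspb8 gave 0 calls in all comparisons, and 1 of them, Hspb7, had an unadjusted p below 0.05, higher in knockout liver under corn oil. Hspb6, the gene of HSP20, had 10.12, 9.48 and 9.67 in knockout TCDD liver, against 9.84, 10.06 and 10.23 in knockout corn oil liver, and the arrays overlapped. Hspb2, Hspb3 and Hspb7, known from muscle, and Hspb11, a subunit of intraflagellar transport, changed by -0.05 to 0.12 in knockout liver. Hspbap1 had 7.19, 7.47 and 7.36 in knockout TCDD liver, against 6.97, 7.10 and 6.90 in knockout corn oil liver. In wild-type liver the order was opposite, with 6.89, 6.91 and 6.84 under TCDD, against 7.05, 7.08 and 7.49 under corn oil. Neither TCDD effect was called, at 0.35 ± 0.12 (SE) and -0.33 ± 0.12 (adjusted p = 0.128 and 0.592).

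Of 8 TRiC genes, 0 were called in each of the 5 comparisons by limma. Tcp1 and Cct6a, which code for further subunits, are not among them. Cct6b and Cct8l1 were dim, with group means of at most 5.19 and 4.35. With an unadjusted p below 0.05 there was 1 gene lower after TCDD in knockout liver (beside 22.1% of all probe sets) and 1 lower in wild-type liver (beside 7.28%). Between the genotypes there were 0 under corn oil (beside 19.3%) and 1 lower in knockout liver under TCDD (beside 11.9%). For the difference between the TCDD effects there was 1, Cct2 (beside 14.8%), at -0.46 ± 0.14 (SE, adjusted p = 0.17). In knockout liver their TCDD changes ran from -0.28 (Cct2) to 0.01 (Cct4), and their 95% intervals reached from -0.61 to 0.17. In wild-type liver the changes ran from -0.32 (Cct8l1) to 0.18 (Cct2), with intervals of -0.70 to 0.40. The lowest bound in each genotype was that of the dim Cct8l1. Cct2 had 10.52, 10.71 and 10.48 in knockout TCDD liver, against 10.84, 10.86 and 10.86 in knockout corn oil liver, and 10.80, 10.80 and 10.88 in wild-type TCDD liver, against 10.50, 10.58 and 10.86 in wild-type corn oil liver. Its groups were separate in knockout liver (adjusted p = 0.13) and overlapped in wild-type liver. Prefoldins hand actin and tubulin to TRiC, and phosducin-like proteins assist it. In a list of these with 7 measured genes, Pdcl had 8.35, 8.39 and 8.29 in knockout TCDD liver, against 9.21, 9.30 and 8.98 in knockout corn oil liver. Pdcl fell by 0.82 on the log2 scale (SE 0.10, adjusted p = 0.00271), and the other 6 genes were not called in that comparison. Under corn oil Pdcl was 0.58 higher in knockout than in wild-type liver (adjusted p = 0.0373). Both Pdcl differences were called again without the third knockout corn oil array, at -0.91 and 0.67. That array was the lowest of its group for Pdcl, so its omission could only widen them and is no check.

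Without TCDD, Hspa13 was the only member called between the genotypes. The 1 call is 1.61% of the members, beside 1.96% of all probe sets called and 1.23% called higher. At an unadjusted p below 0.05 there were 12 members, 8 of them higher, beside 19.3% of all probe sets. Hspa13, an HSP70-like protein of the microsomal lumen and probe set 6847184, had 11.09, 11.01 and 10.26 in knockout corn oil liver, against 9.98, 9.57 and 9.90 in wild-type corn oil liver. Under TCDD it had 10.20, 10.09 and 10.25 in knockout liver, against 9.81, 10.16 and 10.09 in wild-type liver. The corn oil groups did not overlap, and the difference was 0.97 ± 0.20 (SE, 1.96-fold, adjusted p = 0.0472). This call was kept in 1 of 12 fits that left out 1 array, the one without the third knockout corn oil array, and lost without any of the other 11 arrays (adjusted p up to 0.179). Its TCDD change in knockout liver was -0.61 ± 0.20 and was not called (adjusted p = 0.116).

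How many members were called in the comparisons with knockout corn oil liver depended on the third array of that group. Without it, 9 members differed between the genotypes under corn oil, 7 higher and 2 lower in knockout liver (14.5%, beside 6.96% of all probe sets). The higher ones were Hspa13 (1.23), Hspa14 (1.08), Hspa2 (0.83), Dnajc10 (0.82), Dnajb11 (0.63), Dnajc5 (0.60) and Dnajb5 (0.40), with the log2 differences in parentheses. Dnajc28 and Dnajc22 were the lower ones. The array left out was the lowest of its group for each of the higher members and the highest for Dnajc22. Its omission could only widen these differences, so the calls are no check on them. For Dnajc28 it lay between the other 2 arrays of its group. Likewise 11 members were then called after TCDD in knockout liver, 3 higher and 8 lower (17.7%, beside 8.59% of all probe sets). Calls were added for Hspa13, Dnajc10, Hspa14, Dnajb11, Dnajb1, Dnajb5 and Dnajc5, all lower, and Dnajb8, higher, the calls for Dnajb4, Dnajb3 and Hspb8 were kept, and the call for Hspa2 was lost. Hspa13 was then also called for the difference between the TCDD effects, at -1.07 ± 0.19 (SE, adjusted p = 0.0309, beside 2.34% of all probe sets called). The array left out was the lowest of its group for every member with an added lower call, Hspa13 included, and the highest for Dnajb8. Its omission could only widen these differences too, so the added calls are no check on them.

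**Figure D4:**
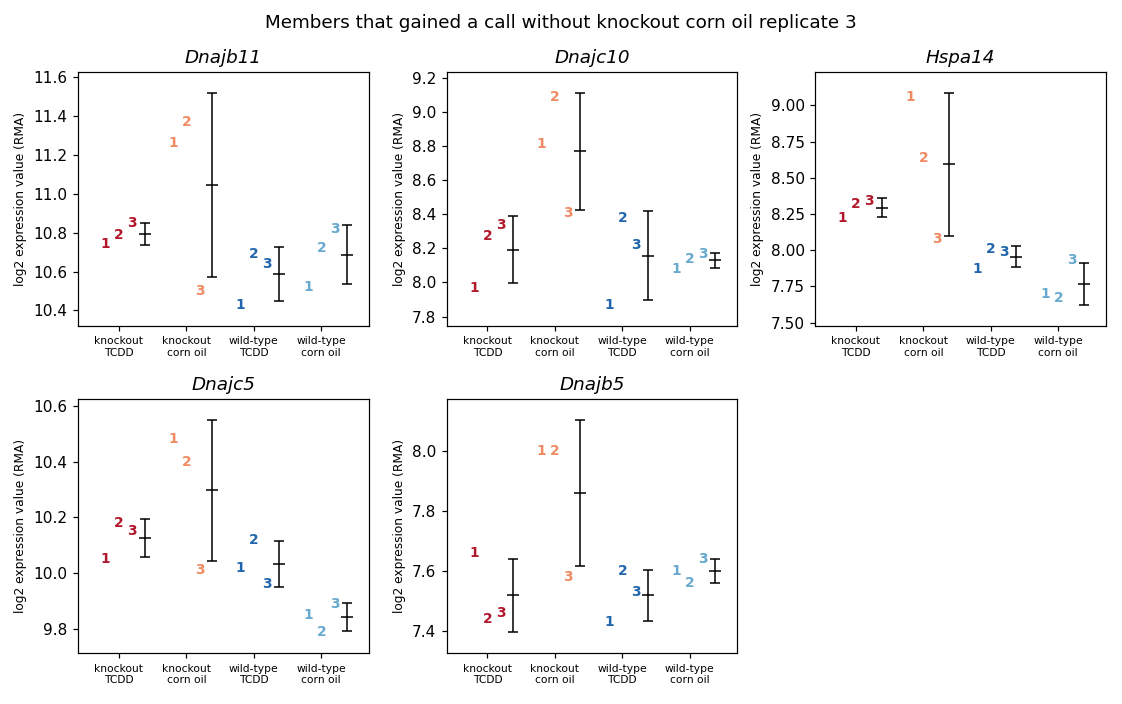
Log2 expression value (vertical axes) by group (horizontal axes) of 5 members that gained a call in both comparisons with knockout corn oil liver when replicate 3 of that group was left out, where digits are replicate numbers, and bars show the mean and SD of 3 arrays. In knockout corn oil liver, Dnajb11 has 11.26 and 11.37 on the first pair of arrays and 10.50 on the third.

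Dnajb11, a co-chaperone of the ER HSP70, had 10.74, 10.79 and 10.85 in knockout TCDD liver, against 11.26, 11.37 and 10.50 in knockout corn oil liver. In wild-type liver it had 10.43, 10.69 and 10.64 under TCDD, against 10.52, 10.72 and 10.82 under corn oil. The third knockout corn oil array was thus lower than 10 of the other 11 arrays, and the other 2 arrays of its group were the highest of all. Hspa14, which forms a ribosome-bound pair with Dnajc2, had 8.22, 8.32 and 8.34 in knockout TCDD liver, against 9.06, 8.64 and 8.08 in knockout corn oil liver. It had 7.87, 8.01 and 7.99 in wild-type TCDD liver and 7.70, 7.67 and 7.93 in wild-type corn oil liver, so that every knockout array was above every wild-type array. With all arrays the corn oil difference of Hspa14 was 0.83 ± 0.20 (SE) and was not called (adjusted p = 0.065).

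A group of ER members, Hspa13, Dnajb11, Dnajc1, Dnajc10 and Dnajb12, was picked by hand with results known. They had a median difference of 0.36 between knockout and wild-type liver under corn oil, with 3 above 0 and 2 below. Without the third knockout corn oil array the median was 0.63. Left out of this group were Dnajc14, Dnajc16 and Dnajc18, further J-domain proteins of the ER membrane. With all arrays they differed by -0.08, -0.18 and 0.003 in this comparison. Among 12 other ER chaperones and stress genes, kept out of the members, 11 were above 0 in that comparison with a median of 0.35, beside 56.9% of all probe sets above 0 and a median of 0.03. Only Dnajb9 was called (0.95, adjusted p = 0.0416), and Hspa5, the main HSP70 of the ER, differed by 0.44 (adjusted p = 0.222). The mean of those 12 genes per array was 12.53, 12.59 and 11.92 in knockout corn oil liver, against 11.86, 11.85 and 12.11 in wild-type corn oil liver. The first pair of knockout corn oil arrays lay above the wild-type arrays, and the third lay among them. Without the low array the median of the 12 genes was 0.56 and 7 were called higher, Dnajb9 (1.02) and Hspa5 (0.68, adjusted p = 0.0137) included. That array was the lowest of its group for each of the 7, so its omission could only widen these differences. Over all probe sets 6.96% were then called in either direction. In the same comparison Marco, a macrophage gene, was higher by 1.13 and Retnlg, a neutrophil gene, by 1.71, 1 call in each list of 8 and 5 markers, and 0 hepatocyte or endothelial markers were called. Without the third array, the lowest of its group for Marco, Retnlg, Lyve1 and S100a8, Marco (1.26) and Retnlg (1.96) were again called. Lyve1, an endothelial marker, and S100a8, a neutrophil marker, were then also called higher. Without that array 4 of 8 macrophage, 5 of 8 endothelial and 4 of 5 neutrophil markers were above 0, beside 56.2% of all probe sets. With all arrays 8 macrophage, 5 endothelial and 5 neutrophil markers were above 0, beside 56.9%. The part of these markers in the members' differences was not tested.

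Under TCDD, Dnajb4 was the only member called between the genotypes, 1.61% of the members beside 0.24% of all probe sets, with 0.223% called higher. It was 0.67 ± 0.09 (SE, 1.59-fold) higher in knockout than in wild-type liver, with an adjusted p of 0.0141 in limma. The call was kept in 8 of 12 fits that left out 1 array, and lost without any 1 wild-type TCDD array and without the third knockout TCDD array (adjusted p = 0.0547 to 0.0686). At an unadjusted p below 0.05, 4 members were higher and 9 lower, beside 11.9% of all probe sets. Arrays did not overlap for 15 members (24.2%), beside 18.3% of all probe sets. Of these, 6 were higher, Dnajb4 and Hspa2 included, beside 6.63% of all probe sets, and 9 were lower, Dnajb1 included, beside 11.7%. Under corn oil Dnajb4 arrays of the genotypes also did not overlap, with a difference of 0.21 ± 0.09 that was not called (adjusted p = 0.234).

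**Figure D5:**
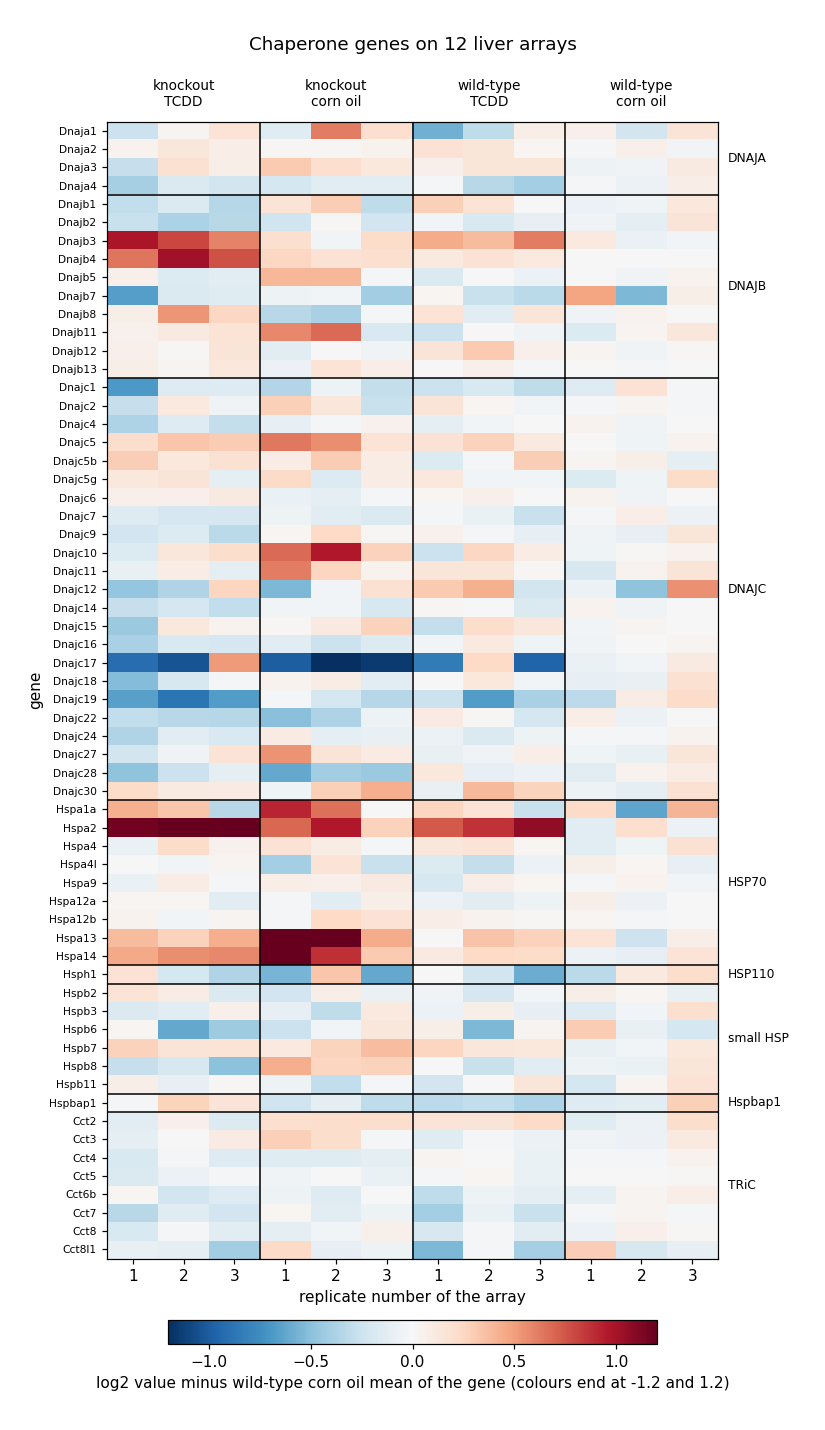
Log2 value of each member (rows, by family) on each array (columns, by group and replicate) minus its mean in wild-type corn oil liver, as colour that ends at -1.2 and 1.2. Hspa2 and Dnajb4 are high in all knockout TCDD arrays, Hspa13 and Hspa14 in the first pair of knockout corn oil arrays, and most TRiC rows are pale.

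The median SD within a group was 0.117 over the members and 0.14 over all probe sets in knockout TCDD liver, and 0.139 and 0.164 in knockout corn oil liver. It was 0.0991 and 0.136 in wild-type TCDD liver, and 0.1 and 0.129 in wild-type corn oil liver. The range between the highest and lowest group mean had a median of 0.27 over the members and 0.293 over all probe sets. It was 0.5 or more for 11 members (17.7%), beside 24.6% of all probe sets. Knockout TCDD liver had the lowest group mean for 24 members (38.7%, beside 33.6% of all probe sets) and the highest for 11 (17.7%, beside 23.0%). The highest mean was in knockout corn oil liver for 22 members (35.5%, beside 36.3%), in wild-type TCDD liver for 7 (11.3%, beside 18.8%) and in wild-type corn oil liver for 22 (35.5%, beside 21.8%). The lowest mean was in knockout corn oil liver for 9 members (14.5%, beside 22.2%), in wild-type TCDD liver for 13 (21.0%, beside 18.1%) and in wild-type corn oil liver for 16 (25.8%, beside 26.1%). These comparisons of medians and shares were not tested.

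Genes that work with these chaperones were described from lists. Of 18 measured genes of HSP90 and its co-chaperones, Fkbp5, a negative regulator of the glucocorticoid receptor that the receptor induces, was called lower after TCDD in knockout liver. It had 7.71, 8.09 and 7.52 in knockout TCDD liver, against 10.63, 10.78 and 9.50 in knockout corn oil liver. In wild-type liver it had 8.73, 8.42 and 8.12 under TCDD, against 7.78, 8.90 and 8.11 under corn oil. It fell by 2.53 on the log2 scale in knockout liver (SE 0.37, adjusted p = 0.0049), and under corn oil it was 2.04 ± 0.37 higher in knockout than in wild-type liver (adjusted p = 0.0369). Fkbp4 and St13, cofactors of the receptor complexes, differed by -0.87 and -0.41 under corn oil and were called lower in knockout liver. Without the third knockout corn oil array these calls were kept, with Fkbp5 at -2.93 and 2.44, Fkbp4 at -1.01 and St13 at -0.41. That array was the lowest of its group for Fkbp5 and the highest for Fkbp4. For both genes its omission could only widen the differences, so it is no check on them. Of 12 measured nucleotide exchange factors and HSP70 regulators, Grpel2, an exchange factor of mitochondrial HSP70, rose after TCDD in knockout liver by 1.30 ± 0.20 (SE, adjusted p = 0.00586). It had 8.76, 8.48 and 8.37 in knockout TCDD liver, against 7.35, 7.13 and 7.23 in knockout corn oil liver, and the call was kept without the third of these arrays (adjusted p = 0.0109). In wild-type liver Grpel2 changed by 0.78 ± 0.20 and was not called (adjusted p = 0.325). Grpel1, also on the list, was not called after TCDD in either genotype. Its means were 10.09 in knockout TCDD and 10.25 in knockout corn oil liver. They were 10.07 in wild-type TCDD and 9.86 in wild-type corn oil liver. Of 10 measured clock genes, Per1 was called lower in knockout liver after TCDD (-1.81, with the call kept without that array). At an unadjusted p below 0.05 in limma there were 7 of the 10, beside 22.1% of all probe sets. Between the genotypes under corn oil there were also 7, beside 19.3%. Without the third knockout corn oil array these counts were 1 and 5, beside 5372 and 5091 of all 23332 probe sets. The corn oil differences ran from -1.97 (Arntl) to 2.36 (Dbp), and Arntl had 8.52, 6.69 and 6.25 in knockout corn oil liver. The part of the clock differences in the members' values was not tested. Of 2 temperature-responsive genes, Cirbp and Srsf5, 0 were called.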

How the data were processed

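Liver RNA of 12 mice was measured on Affymetrix Mouse Exon 1.0 ST arrays, 1 sample per array. The authors deposited log2 expression values, 1 per probe set and array, made with RMA in Affymetrix Expression Console against mm9, per the submitters' processing notes. RMA subtracts background, makes the arrays' distributions alike and sums probes to a log2 value, so small true shifts of a whole array are removed. Neither versions nor the probe set level was given in the sources used here. Values were used as deposited, and 0 columns came from other series.

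Gene symbols came from the platform annotation, and all 62 members matched a RefSeq table (GRCm38.p6) by gene number, which was used for names, neighbours and promoters. A group-means model over 12 arrays was fitted with limma 3.58.1 in R 4.3.3 (8 residual and 2.19 prior degrees of freedom). It was tested on simulated data. The 5 comparisons were the TCDD effect in knockout and in wild-type liver, the genotype difference in corn oil and in TCDD liver, and the interaction (knockout TCDD effect minus wild-type TCDD effect). P-values were adjusted over all 23332 probe sets within each comparison, and all adjusted p-values are from limma. Values on every array are given for called members without overlap, for the brightest and the most changed member of each family, and for named heat-inducible genes. A few more members were picked after their values were seen. The members, the lists and this rule were chosen with earlier results of these data known. Alternatives changed the empirical Bayes step, the arrays fitted, normalization, a filter on dim probe sets, the control group, a fold minimum and the probe set, or left out 1 array.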

Additional observations from a re-analysis of the deposited data

Results flagged for a closer look

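Hspbap1 was singled out by a search over all members for TCDD effects that went opposite ways in the genotypes. The separation of its arrays was the ground for picking it and is no further evidence. The share of all probe sets with such an opposite separation was not worked out. Every knockout TCDD array was above every knockout corn oil array, with a change of 0.35, and every wild-type TCDD array was below every wild-type corn oil array, with a change of -0.33. The difference between the TCDD effects was 0.68 and was not called (limma, adjusted p = 0.12).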

How the results depend on the processing

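With 3 arrays a group the precision is limited, and how far a dim probe set such as that of Dnajb3 lies above background was not assessed. Among the members called, 4 after TCDD in knockout liver, 1 between genotypes under corn oil and 1 under TCDD, 0 results changed direction under any alternative. Fitting only the arrays compared left 0 calls in each of these 3 comparisons, with fewer arrays behind the spread. For knockout against wild-type liver under corn oil, the robust and trended fit gave 2 calls, the filter on the dimmest 50% of probe sets 6 (5 higher and 1 lower), and the replicate block 0. Shares over all probe sets were not worked out for these settings. Leaving out 1 array gave 3 to 11 calls after TCDD in knockout liver, 0 to 9 between genotypes under corn oil, 0 to 1 between genotypes under TCDD, and 0 to 1 for the difference between the TCDD effects. The highest counts came without replicate 3 of knockout corn oil. Quantile normalization and median centring each gave 5 calls after TCDD in knockout liver, with Dnajb8 added, and under corn oil called Dnajc28 in place of Hspa13 (adjusted p = 0.051 and 0.0519). The dim filter gave 5 calls after TCDD in knockout liver, adding Dnajc10 and Dnajc19, and did not test Dnajb3. With wild-type corn oil as the control there were 4 calls, with Dnajc19 (-0.73) in and Hspb8 out. In wild-type liver 0 members were called under every alternative run. A 1.5-fold minimum and the probe set with the largest SD changed 0 calls. Same-numbered samples of different groups correlated at -0.208 to 0.114 in their deviations, above 0.1 in 2 of 18 pairs, so the numbers were not taken as pairs. With the replicate block, 3 calls after TCDD in knockout liver were kept and Hspa2 was lost (adjusted p = 0.055), and Hspa13 was lost under corn oil (adjusted p = 0.0938). Where a count moved with a setting, the cause was not tested.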
